A study of Rattus norvegicus with 12 samples.

Results

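The gene expression measured here concerns whether a cytokine challenge changed INS-1E cells differently after a low-dose IL-1β preconditioning than without it. INS-1E is a clonal rat insulinoma line that secretes insulin and is used as a β-cell model, so every library comes from 1 wild-type tumour-derived line and not from islets. Bulk polyA RNA-seq was available for 12 of 12 libraries in 4 groups of 3 biological replicates. Untreated cells received no cytokine. IL-1βlow cells received 10 pg/ml IL-1β for 72 h, renewed daily. CYT cells received both IL-1β, at 100 pg/ml, and IFN-γ, at 5 ng/ml, for 16 h. IL-1βlow + CYT cells received the preconditioning and then, in renewed medium, the same challenge. The 4 groups form a 2 by 2 design. The interaction of a gene is its CYT effect in preconditioned cells (IL-1βlow + CYT minus IL-1βlow) minus its CYT effect in cells without preconditioning (CYT minus untreated), both as log2 fold changes. An interaction of -1 means that the CYT response, as a fold, came to 0.5 times its size in cells without preconditioning, and 0 means that both responses were equal. All genes above 1 CPM (counts scaled to the total of their library) in at least 2 libraries were tested, 14324 of 34034 gene symbols, and no measured effect was used to choose them.

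IL-1β binds the IL-1 receptor, which signals through MyD88 and IRAK kinases to NF-κB and AP-1, while IFN-γ acts through JAK kinases, STAT proteins and the interferon regulatory factors (IRFs). In β-cells, both cytokines together raise the inducible nitric oxide synthase, chemokines and antigen presentation genes, engage the branch of the stress response that runs from eIF2α phosphorylation to the transcription factors ATF4 and CHOP, and lower insulin and β-cell transcription factor mRNAs. An earlier exposure to IL-1β can alter how many cell types answer a later one.

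Libraries held 15812640 to 20246806 counts (median 17461925.5), and TMM scaling factors ran from 0.968 to 1.04. The 45S ribosomal RNA gene took 6.89% to 11.1% of the counts. The β-cell markers matched the label: all 8 listed were tested and summed to at least 10649 CPM in every library. Of the 12 δ-cell, PP-cell, acinar and ductal markers, 0 passed the filter. Of 5 endothelial markers, 2 passed it (Kdr and Vwf), and the 5 summed to 3.48 to 20.1 CPM. Of 5 fibroblast markers, 2 passed it (Col1a2 and Pdgfra), and the 5 summed to 6.18 to 16.4 CPM. Of 7 macrophage and leukocyte markers, 3 passed the filter (Cd68, Adgre1 and Csf1r), and the interaction passed for 1 of these in the test given below. The 7 summed to 0.820 to 1.78 CPM in unchallenged, 2.16 to 3.48 in CYT and 4.62 to 5.77 in IL-1βlow + CYT libraries. Mean Adgre1 was 0.02 CPM in untreated, 0 in IL-1βlow, 1.35 in CYT and 2.79 in IL-1βlow + CYT libraries. Mean Csf1r was 0.63, 0.31, 0.17 and 1.43 CPM in that order. Ptprc and Itgam were at 0 in all libraries. The α-cell hormone gene Gcg was present, at 24.2 to 367 CPM. No pair of libraries from a group agreed within counting noise, so each counted as 1 replicate. With replicates labelled as biological, p-values measure the spread between cultures of 1 line.

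The interaction passed for 1530 of 14324 genes (10.7%) in edgeR's quasi-likelihood test, with an adjusted p below 0.01 and a log2 value of more than 1 in size, which is what "passed" means below. It was lower than 0 in 745 of them (5.2% of genes tested) and higher than 0 in 785 (5.48%). In the lower genes, the median CYT effect went from 1.75 on the log2 scale without preconditioning to 0.24 with it. In the higher genes, the median went from -1.58 to -0.12. The median interaction was -1.43 in the lower and 1.41 in the higher genes, beside 0.04 over all genes tested. Both sets were called for an interaction of more than 1 in size. These medians, and the gaps between the CYT medians, are therefore largely set by the call. The sign was the same in all 3 same-numbered sets of 4 libraries for each of the 1530 genes. These are the libraries from which the genes were called, so that agreement is largely set by the call and is no separate support. An estimated value above 1 in size is a weaker requirement than a value shown to exceed 1: a test against that minimum itself (glmTreat) passed 182 genes, of which 49 were higher. In bulk libraries, fewer cells of a kind and less RNA per cell cannot be told apart. In bulk libraries, fewer cells of a kind and less RNA per cell cannot be told apart.

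**Figure D1:**
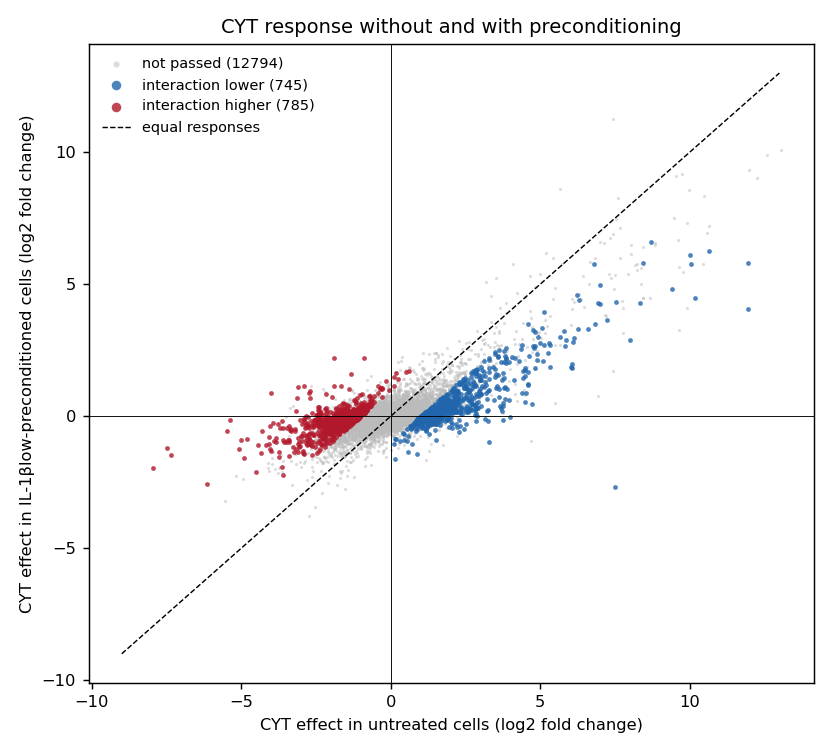
Each point is 1 of 14324 genes, with its CYT effect in cells without preconditioning on the x axis and in IL-1βlow-preconditioned cells on the y axis, both as log2 fold changes over 3 libraries a group. The dashed line marks equal responses. The 745 genes with a passed lower interaction (blue) lie below it, and the 785 with a passed higher interaction (red) above it.

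The interaction mostly took the form of smaller responses. Of the 1530 genes, 556 (36.3%) had a CYT effect above 0 in both states that was smaller after preconditioning, and 500 (32.7%) had one below 0 in both states that was smaller in size after preconditioning. In 189 lower and 279 higher genes the estimated CYT effect had opposite signs in the 2 states, and in 457 of these 468 genes the effect in preconditioned cells did not pass on its own. A larger rise after preconditioning was found for 6 genes, and a larger fall for 0 of the 1530. CYT passed without preconditioning in 3096 genes (21.6% of those tested) and with it in 556 (3.88%). Without preconditioning, CYT raised 1439 genes, and 374 of these also rose in preconditioned cells. Of the 1657 that fell, 122 also fell. The interaction was lower in 678 of the 1439 and higher in 702 of the 1657, and it passed in the other direction in 0 of either set by edgeR, DESeq2 and limma voom. At an unadjusted p under 0.05 by edgeR, 7 of the 1439 had an interaction above 0 and 2 of the 1657 one below 0. The interaction contains the CYT effect of cells without preconditioning with its sign reversed, so part of this pairing of signs follows from the shared libraries.

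Median CYT effects were nearer to 0 after preconditioning for each range of response sizes given here. The ranges were cut on the CYT effect without preconditioning, so part of each difference follows from that choice. Among the 956 genes with a CYT effect of 1 to 2 without preconditioning, the medians were 1.30 without and 0.32 with preconditioning. They were 2.36 and 0.93 for the 267 genes from 2 to 3, 3.48 and 1.78 for the 112 genes from 3 to 4, and 5.84 and 3.64 for the 184 genes above 4. On the falling side, the medians were -1.34 and -0.27 for 1496 genes from -2 to -1, and -3.40 and -0.99 for 70 genes from -4 to -3. Across the 14324 genes, which are not independent replicates, the 2 CYT effects correlated with Pearson's r = 0.762. In the highest bin 140 of 184 genes had a group with under 10 counts on average, and the median standard error of the interaction there was 0.88, beside 0.19 for effects of 1 to 2. Of the other 44 genes of that bin, 39 passed with a lower interaction.

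The same number can be read along the other axis of the design, as the IL-1βlow effect under CYT minus the IL-1βlow effect at rest. Preconditioning alone changed 62 genes (0.433% of those tested, at an absolute log2 value above 0.6), and it changed 1785 (12.5%) when CYT followed. For the 745 lower genes, the median IL-1βlow effect was 0.14 at rest and -1.25 under CYT. For the 785 higher genes it was -0.15 at rest and 1.27 under CYT. Of the lower genes, 562 were below CYT cells in the passed test of IL-1βlow + CYT against CYT, and 18 were already raised at rest. Of the higher genes, 582 were above CYT cells and 6 were already lowered at rest. The interaction contains both of these IL-1βlow effects, the one at rest with its sign reversed. Part of these signs and medians therefore follows from the shared libraries. Under a block for the replicate number, 141 genes passed at rest in place of 62, and leaving out 1 library gave 16 to 88.

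**Figure D2:**
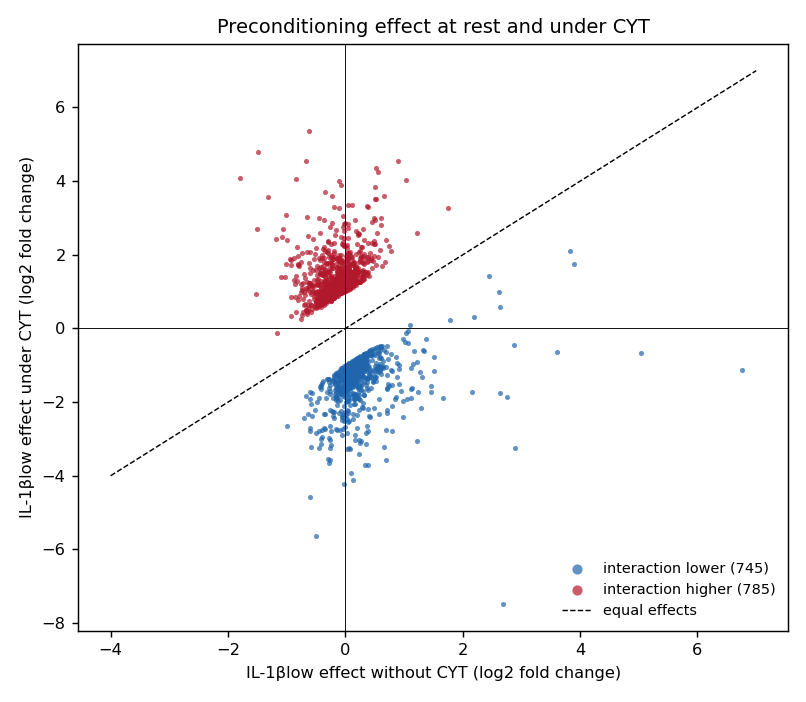
Each point is 1 of the 1530 genes with a passed interaction, with the IL-1βlow effect without CYT on the x axis and under CYT on the y axis, both log2 fold changes. The empty band along the dashed line of equal effects is set by the minimum of 1 for the interaction. Most points lie near 0 on the x axis, and a few lower genes reach far to the right, where preconditioning alone had raised them.

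Genes were grouped into 30 lists by function. The list with the largest share of passed interactions was that of ATF4 and CHOP targets (23 of 28 tested, all lower). Aminoacyl-tRNA synthetases (9 of 18, all lower), G2M and mitosis genes (17 of 35, all higher) and mitochondrially encoded respiratory genes (6 of 13, all higher) had shares close to each other, whose order changed when a library was left out. These shares stand beside 10.7% of all genes tested. List medians of the interaction ran from -2.31 for MHC class II to 1.31 for the mitochondrially encoded genes. By glmTreat, 14 of the ATF4 and CHOP targets and 3 of the synthetases passed, and 0 to 2 members of each of the other 28 lists.

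**Figure D3:**
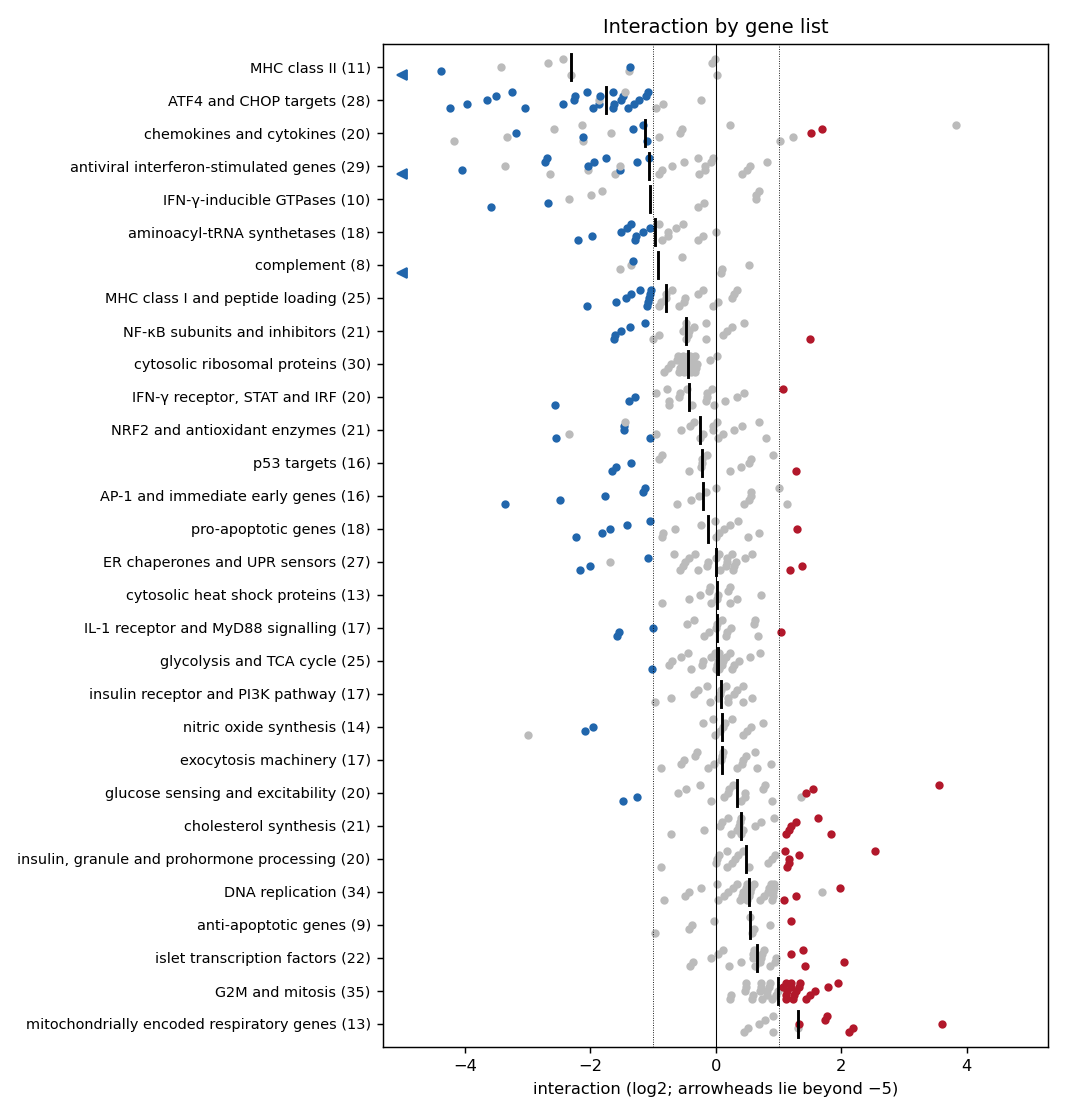
Interaction on the log2 scale for each tested member of 30 gene lists, with the number tested in parentheses. Blue and red points passed as lower or higher, grey points did not pass, black bars are list medians, dotted lines mark -1 and 1, and the 3 arrowheads stand for members below -5. Inflammatory, antiviral and ATF4 lists sit to the left, and mitosis, islet transcription factor and mitochondrial lists to the right.

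ATF4 and CHOP targets had the most passed interactions of the 30 lists. ATF4 is the transcription factor whose translation rises when eIF2α is phosphorylated, and CHOP (encoded by Ddit3) is a pro-apoptotic factor downstream of it. All 28 tested members had an interaction below 0 (median -1.75), 23 passed, and the median CYT effect went from 1.80 without preconditioning to 0.11 with it, while the median IL-1βlow effect at rest was 0.05. CYT raised 23 members without preconditioning and 2 of these with it. Trib3, a pseudokinase induced by CHOP, was at 2.12, 3.43 and 4.01 CPM in untreated, 3.08, 3.74 and 3.64 in IL-1βlow, 188, 257 and 199.9 in CYT and 5.11, 16.7 and 15.0 in IL-1βlow + CYT libraries. Its CYT libraries lay above all others by far, and the IL-1βlow + CYT libraries lay above the unchallenged ones without overlap. The CYT effect went from 6.08 without preconditioning to 1.83 with it, an interaction of -4.25 (SE 0.50, quasi-likelihood adjusted p = 2.99e-05). Ddit3 itself was at 12.1, 12.3 and 14.7 CPM in untreated, 14.5, 14.7 and 17.0 in IL-1βlow, 265, 319 and 314 in CYT and 19.0, 31.3 and 33.7 in IL-1βlow + CYT libraries, with no overlap between the CYT and IL-1βlow + CYT groups and an interaction of -3.66 (SE 0.24, quasi-likelihood adjusted p = 4.82e-07). Ddit3 overlaps Mars1 in the annotation, so reads may be shared. Atf3, a stress-induced repressor of the same family, stood at 58.5, 74.5 and 62.7 CPM in CYT libraries and at 2.43, 2.69 and 3.09 in IL-1βlow + CYT libraries, which overlapped the untreated range of 2.69, 3.73 and 2.19 (interaction -3.97, SE 0.28, quasi-likelihood adjusted p = 6.22e-07).

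Further members of this list followed the same course. Chac1, which degrades glutathione, had a CYT effect of 4.38 without and 0.88 with preconditioning (interaction -3.50, SE 0.25). Ppp1r15a, which encodes the eIF2α phosphatase subunit GADD34, had an interaction of -3.04 (SE 0.16), and the stress protein gene Nupr1 one of -3.26 (SE 0.17). Atf4 mRNA was at 156, 176 and 174 CPM in untreated, 159, 180.5 and 164 in IL-1βlow, 668, 721 and 708 in CYT and 169, 204 and 199 in IL-1βlow + CYT libraries, so that the 3 IL-1βlow + CYT libraries lay close to the unchallenged range (interaction -1.87, SE 0.13, quasi-likelihood adjusted p = 5.19e-07). Genes of amino acid supply were included: Slc3a2 and Slc7a5, the 2 chains of a leucine transporter, had interactions of -2.25 (SE 0.13) and -1.85 (SE 0.22), Asns (asparagine synthetase) one of -1.41 (SE 0.11), and the serine and one-carbon genes Psat1, Psph, Shmt2 and Mthfd2 ranged from -2.26 to -1.52. Gdf15, a secreted stress hormone, had -1.64 (SE 0.33). The members that did not pass included Cebpg at -0.96 and Slc38a2 at -0.24.

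**Figure D4:**
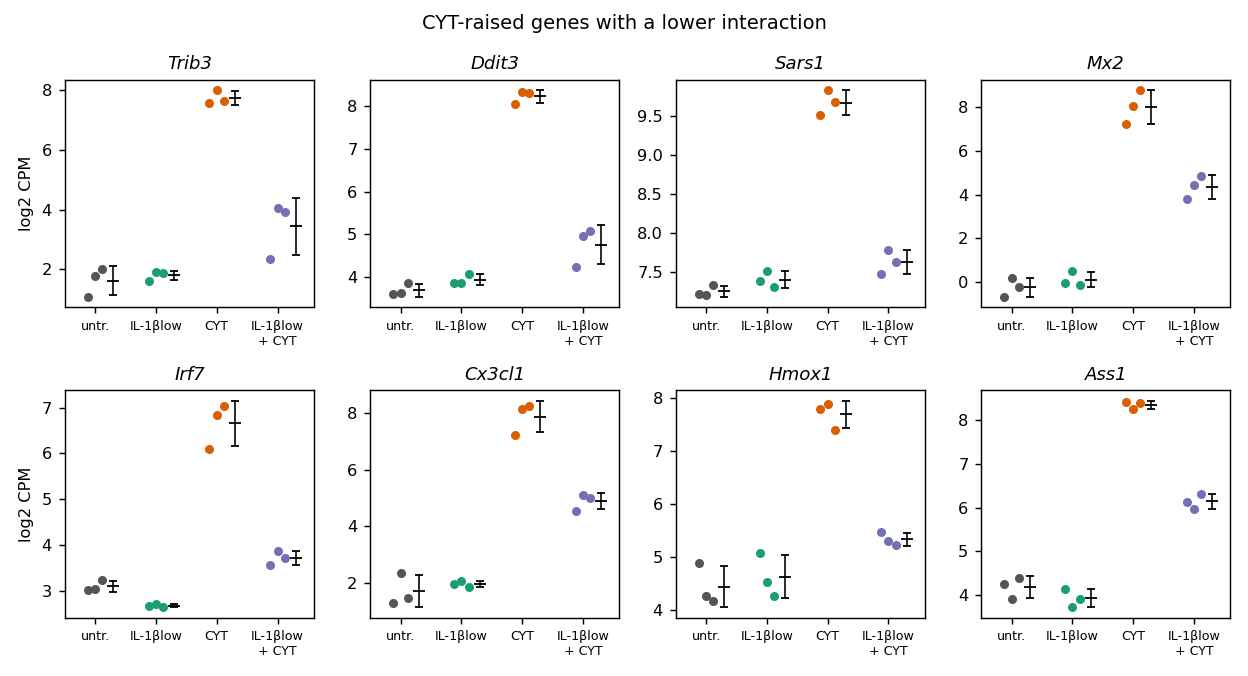
Expression as log2 CPM in each of the 12 libraries for 8 genes that CYT raised, by group, with the mean and SD (n = 3) beside the points. In each panel the 3 CYT libraries are highest, the 3 IL-1βlow + CYT libraries lie below them without overlap, and the untreated and IL-1βlow libraries are lowest or close to the preconditioned challenged ones.

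The promoter of Trib3 is shown because it heads this list and holds a match to the C/EBP-ATF composite element, the site that ATF4 and CHOP bind as dimers with C/EBP proteins. The 250 bases before its start (RefSeq, GRCr8, chr3:161275534-161275783, minus strand of the assembly, written 5′ to 3′ along the gene) hold 1 match to TGATGNAA, in capitals on the opposite strand, 21 to 14 bases before the start.
Trib3: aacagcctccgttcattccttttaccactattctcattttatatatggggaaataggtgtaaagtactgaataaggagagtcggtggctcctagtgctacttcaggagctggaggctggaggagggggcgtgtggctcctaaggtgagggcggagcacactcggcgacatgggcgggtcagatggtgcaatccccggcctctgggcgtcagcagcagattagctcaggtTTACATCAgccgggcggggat
This element was found on either strand in 5 of 26 ATF4 and CHOP targets with a promoter window (19.2%), in 7 of 15 aminoacyl-tRNA synthetase genes (46.7%), in 5.02% of 598 genes with a lower interaction, in 3.42% of 584 with a higher one and in 2.28% of all 10925 genes matched to a window. Among the list members the matches fell in Trib3, Chac1, Nupr1, Pck2 and Pycr1. A window holds 250 bases before and 50 after an annotated start, a gene counts when any of its windows matches, and these shares are descriptions without a test.

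The aminoacyl-tRNA synthetases, which charge tRNAs with amino acids and are in part ATF4-regulated, had lower interactions in 9 of 18 members, with 17 of 18 below 0 and a median of -0.97. CYT raised 9 of them without preconditioning and 0 with it (also 0 by DESeq2 and limma voom, and 3 at an unadjusted p under 0.05 by edgeR). Sars1, the seryl-tRNA synthetase, was at 149, 148 and 161 CPM in untreated, 167, 184 and 159 in IL-1βlow, 731, 913 and 821 in CYT and 178, 221 and 199 in IL-1βlow + CYT libraries. The interaction was -2.20 (SE 0.14, quasi-likelihood adjusted p = 4.13e-07), and 1 of the 3 IL-1βlow + CYT libraries lay within the unchallenged range and the other two above it. Cars1 followed with -1.98 (SE 0.19). The smallest passed interaction in the list was that of Kars1, at -1.05 (SE 0.13).

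Genes of the endoplasmic reticulum divided. In the list of ER chaperones and unfolded protein response (UPR) sensors, 3 of 27 members had a lower and 2 a higher interaction, and the median was 0.00. Ern1, which encodes the sensor IRE1α, was at 51.9, 58.0 and 55.4 CPM in untreated, 52.6, 55.5 and 49.4 in IL-1βlow, 242, 290.4 and 288 in CYT and 51.0, 63.5 and 59.1 in IL-1βlow + CYT libraries. The challenged preconditioned libraries overlapped the unchallenged range (interaction -2.17, SE 0.14, quasi-likelihood adjusted p = 4.13e-07). Herpud1, a component of ER-associated degradation, had -2.0 (SE 0.19) and the sensor gene Atf6 -1.09 (SE 0.10). In the opposite direction, Edem1, which targets misfolded glycoproteins for degradation, fell with CYT to 119.6, 101 and 105 CPM from 318, 315 and 312, but stood at 230.4, 206 and 229.9 CPM after preconditioning (interaction 1.37, SE 0.13). Ero1b, a protein disulfide oxidase of β-cells, had 1.18 (SE 0.28), a call lost when any of 6 single libraries was left out (untreated 1 or 3, IL-1βlow 1 or 2, CYT 1 or 2; lowest value 0.97). The chaperone genes Hsp90b1 and Hyou1 fell with CYT without preconditioning, and their interactions did not pass. Hsp90b1 had CYT effects of -1.16 and -0.83 and Hyou1 of -1.07 and -0.90, and their interactions were 0.32 (95% interval -0.09 to 0.74) and 0.18 (-0.22 to 0.57). Derl3, of the ER degradation channel, fell in both states, by 1.58 and 1.53 on the log2 scale. Matches to the ER stress response element, the site of ATF6, were found in the promoter windows of 9 of 21 members (42.9%), beside 0.137% of all matched genes, 0.167% of those with a lower and 0.171% of those with a higher interaction.

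Part of the interferon-response genes rose less with CYT after preconditioning. CYT raised 22 of 29 antiviral genes without preconditioning and 10 with it. In preconditioned cells, DESeq2 gave 12 and limma voom 7, and 26 of the 29 rose at an unadjusted p under 0.05 by edgeR. In the signalling list (IFN-γ receptor, STATs and IRFs), 3 of 20 members had a lower and 1 a higher interaction. Irf7, which amplifies interferon-stimulated transcription, was at 8.08, 8.17 and 9.36 CPM in untreated, 6.31, 6.56 and 6.23 in IL-1βlow, 68.7, 114 and 132 in CYT and 11.7, 14.6 and 13.1 in IL-1βlow + CYT libraries. The CYT libraries and the IL-1βlow + CYT libraries did not overlap, and the CYT effect went from 3.62 without preconditioning to 1.05 with it (interaction -2.57, SE 0.28, quasi-likelihood adjusted p = 1.78e-05). Irf1, a factor induced by interferons, had -1.38 (SE 0.21) and Irf5 -1.30 (SE 0.27). The interactions of Stat2 (-0.96, SE 0.14) and Irf9 (-0.74, SE 0.22) did not pass. Socs2, a suppressor of cytokine signalling, fell with CYT and had a higher interaction of 1.07 (SE 0.13), under the minimum without IL-1βlow replicate 2 (0.97).

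Of 29 antiviral interferon-stimulated genes, 10 had a lower interaction and 0 a higher one by the quasi-likelihood test, with a median of -1.07. DESeq2 gave 12 lower and 0 higher and limma voom 6 lower and 0 higher, and 2 members had an interaction above 0 at an unadjusted p under 0.05 by edgeR. Mx2, an antiviral GTPase, was at 0.63, 1.12 and 0.851 CPM in untreated, 0.974, 1.41 and 0.925 in IL-1βlow, 149, 261 and 435 in CYT and 13.7, 21.3 and 29.1 in IL-1βlow + CYT libraries. Its CYT libraries ranged widely but lay above all IL-1βlow + CYT libraries (interaction -4.06, SE 0.84, quasi-likelihood adjusted p = 0.00196). That call was lost without IL-1βlow replicate 2 (-3.88, adjusted p = 0.013) and under limma voom (-3.99, adjusted p = 0.0215). Herc6, an interferon-induced ubiquitin ligase family member, was at 16.4, 22.0 and 42.6 CPM in CYT and 1.76, 2.04 and 5.41 in IL-1βlow + CYT libraries, and had an interaction of -2.73 (SE 0.64). Its call was lost without untreated replicate 1 or 3 or IL-1βlow replicate 1, with values of -2.78, -2.58 and -2.72, and under limma voom. Oas1a, an RNA sensor that makes oligoadenylates, had -2.69 (SE 0.40), Usp18, which removes ISG15 from proteins, -1.95 (SE 0.33), and Isg15 itself -1.75 (SE 0.32). Other members rose in both states, with no passed interaction: Dtx3l had CYT effects of 1.09 and 1.05 (95% interval of the interaction -0.58 to 0.50), and Parp14 had 1.49 and 2.04 (0.18 to 0.91).

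Rsad2, which encodes the antiviral enzyme viperin, had a passed lower interaction, but its unchallenged libraries held few counts, so counts are given in place of a fold. They were 6, 6 and 6 in untreated, 7, 3 and 3 in IL-1βlow, 818, 1448 and 2973 in CYT and 19, 40 and 42 in IL-1βlow + CYT libraries. Its promoter is printed as the example of the interferon-stimulated response element (ISRE), the site of the STAT and IRF complexes. The 250 bases before the start (RefSeq, GRCr8, chr6:48788121-48788370, minus strand, 5′ to 3′ along the gene) hold 1 match to GAAANNGAAA, in capitals on the opposite strand, 147 to 138 bases before the start.
Rsad2: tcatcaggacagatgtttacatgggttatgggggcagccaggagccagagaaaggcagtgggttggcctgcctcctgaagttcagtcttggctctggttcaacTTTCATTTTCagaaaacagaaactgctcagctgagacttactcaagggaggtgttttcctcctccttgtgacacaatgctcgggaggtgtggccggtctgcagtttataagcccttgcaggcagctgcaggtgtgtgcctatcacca
ISRE matches were present in 16 of 22 antiviral genes with a window (72.7%), in 8 of 22 MHC class I and peptide loading genes (36.4%), in 5.02% of genes with a lower interaction, 2.91% of those with a higher one and 3.16% of all matched genes. Members with a match stood on both sides: Oas1a and Bst2 passed, while Dtx3l, Parp14 and Isg20 did not. Matches to the IFN-γ-activated sequence (GAS, TTCNNNGAA) were in 7.19% of lower, 7.02% of higher and 7.4% of all matched genes.

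Among 10 IFN-γ-inducible GTPases, which act against intracellular pathogens, 2 had a lower interaction. Gbp2 counts were 16, 7 and 6 in untreated, 16, 4 and 8 in IL-1βlow, 401, 386 and 846 in CYT and 70, 78 and 80 in IL-1βlow + CYT libraries, and Gbp6 counts 6, 3 and 1, 6, 4 and 8, 423, 497 and 794 and 48, 101 and 90. Both had passed lower interactions, and no CYT library overlapped an IL-1βlow + CYT library. By contrast, Irgm2, an immunity-related GTPase, was at 35.9, 28.7 and 38.7 CPM in CYT and 72.9, 50.1 and 61.4 CPM in IL-1βlow + CYT libraries (interaction 0.69, SE 0.22, not passed), and Igtp had CYT effects of 2.0 and 1.71. The list median was -1.05, but 0.61 when at least 10 counts in every library were required, which left 5 members, Gbp7 the only guanylate-binding protein gene among them, and 0 of the 5 passed. The 2 calls fell to 1 without IL-1βlow replicate 1, untreated replicate 2 or 3 or IL-1βlow + CYT replicate 1 or 2, and to 0 without IL-1βlow replicate 3.

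For the NF-κB pathway, components of the receptor complex and of the pathway itself were examined apart. Among 17 IL-1 receptor and MyD88 signalling genes, 3 had a lower and 1 a higher interaction. Irak2, a kinase that sustains signalling, was at 18.2, 19.5 and 27.0 CPM in CYT and 7.30, 6.56 and 6.66 in IL-1βlow + CYT libraries (interaction -1.57, SE 0.26), and Irak3, an inhibitory family member, had -1.55 (SE 0.30). Tab1, an adaptor of the kinase TAK1, had -1.0 (SE 0.18), just past the minimum in size. Il1r1, the signalling receptor for IL-1β, was at 392, 393 and 426 CPM untreated, 139, 110.2 and 178 in CYT and 254, 211 and 321 in IL-1βlow + CYT libraries, an interaction of 1.03 (SE 0.24). That value lay so near the minimum of 1 that it did not pass in 9 of 18 alternatives, 8 of them the removal of 1 library (0.86 to 1.03). Its IL-1βlow effect at rest was -0.16 (adjusted p = 0.683).

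Of 21 NF-κB subunits and inhibitors, 5 had a lower and 1 a higher interaction, and the median was -0.47. CYT raised 14 members without preconditioning and 9 of these also with it. Nfkb2, the p100 and p52 subunit, was at 27.0, 24.3 and 27.6 CPM in untreated, 34.4, 33.2 and 32.9 in IL-1βlow, 283, 332 and 359.6 in CYT and 201, 186 and 178 in IL-1βlow + CYT libraries. Its CYT and IL-1βlow + CYT libraries did not overlap, and both lay far above the unchallenged ones (interaction -1.13, SE 0.13, quasi-likelihood adjusted p = 3.18e-05). Relb had -1.0 (SE 0.13) and Nfkb1 -0.91 (SE 0.14), and both stayed under the minimum, Relb so closely that it passed in 15 of 18 alternatives. Birc3, an NF-κB-induced inhibitor of apoptosis, had -1.63 (SE 0.33), Tnip2 -1.60 (SE 0.26) and Nfkbil1, which overlaps Atp6v1g2, -1.52 (SE 0.19). Inhibitors that NF-κB induces as feedback rose in both states, and their interactions did not pass. Nfkbia (IκBα) was at 152, 161 and 191 CPM in CYT and 116, 120.0 and 106 in IL-1βlow + CYT libraries, and its interaction was -0.48 (95% interval -0.83 to -0.12). Tnfaip3 (A20) had -0.44 (-0.90 to 0.03), and Nfkbiz -0.16 (-0.72 to 0.41), with CYT effects of 3.06 and 2.90. At rest, 0 of the 21 genes passed for IL-1βlow by edgeR, DESeq2 and limma voom (8 at an unadjusted p under 0.05 by edgeR), and Tnip1 had an effect of 0.55. Bcl3, a nuclear IκB protein, was the member with a higher interaction: it was at 4.41, 3.85 and 5.90 CPM in untreated, 3.38, 3.68 and 3.08 in IL-1βlow, 5.22, 4.49 and 2.91 in CYT and 8.27, 9.05 and 8.26 in IL-1βlow + CYT libraries, so only the IL-1βlow + CYT libraries stood apart (1.50, SE 0.31, quasi-likelihood adjusted p = 0.00181).

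Among 20 chemokines and cytokines, 5 had a lower and 2 a higher interaction (median -1.13, with a library under 10 counts in 11 of the 20). Cx3cl1, the membrane-bound chemokine fractalkine, was at 2.46, 5.15 and 2.80 CPM in untreated, 3.90, 4.17 and 3.64 in IL-1βlow, 150.3, 279 and 306 in CYT and 23.5, 34.6 and 32.3 in IL-1βlow + CYT libraries. All challenged preconditioned libraries lay far below the CYT libraries and above the unchallenged ones (interaction -3.19, SE 0.43, quasi-likelihood adjusted p = 8.19e-05). Cxcl16, which overlaps Zmynd15, had -1.33 (SE 0.18), Cxcl11, a ligand of CXCR3, -1.17 (SE 0.30) and the macrophage growth factor gene Csf1 -1.09 (SE 0.13). Cxcl10, another CXCR3 ligand, did not pass. It was at 9.11, 6.57 and 8.02 CPM untreated, 4.87, 3.80 and 2.59 in IL-1βlow, 71.1, 65.4 and 105 in CYT and 53.6, 40.4 and 41.9 in IL-1βlow + CYT libraries, and its CYT effects of 3.35 and 3.58 left an interaction of 0.23 (95% interval -0.50 to 0.95). Cxcl12, a homing chemokine, was raised by preconditioning alone, from 4.24, 4.02 and 3.04 to 12.6, 13.9 and 11.7 CPM, and stood at 2.66, 2.27 and 1.89 in CYT and 26.3, 21.0 and 18.1 in IL-1βlow + CYT libraries (interaction 1.51, SE 0.26, quasi-likelihood adjusted p = 6.27e-04). Il33, an alarmin, had 1.69 (SE 0.36). The 5 lower calls fell to 3 without IL-1βlow replicate 1 or untreated replicate 1.

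Ltb, a lymphotoxin subunit gene of the tumour necrosis factor family, had counts of 6, 10 and 6 in untreated, 26, 14 and 13 in IL-1βlow, 2524, 3015 and 4600 in CYT and 1837, 1693 and 1645 in IL-1βlow + CYT libraries, so the challenged groups did not overlap and preconditioning alone had a slightly higher range. It was the member of the NF-κB and cytokine lists with the lowest passed interaction among those with a κB match in the promoter, which is printed for that reason. The 250 bases (RefSeq, GRCr8, chr20:3634055-3634304, minus strand, 5′ to 3′ along the gene) hold 1 match to the κB consensus, in capitals on the opposite strand, 25 to 16 bases before the start.
Ltb: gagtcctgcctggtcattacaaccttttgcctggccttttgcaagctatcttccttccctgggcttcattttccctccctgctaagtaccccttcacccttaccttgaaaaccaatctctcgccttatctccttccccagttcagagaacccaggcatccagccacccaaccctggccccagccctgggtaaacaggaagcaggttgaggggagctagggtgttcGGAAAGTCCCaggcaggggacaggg
κB matches were found in 10 of 16 NF-κB subunit and inhibitor genes (62.5%), 7 of 17 chemokine and cytokine genes (41.2%) and 10 of 22 MHC class I genes (45.5%). They were in 17.6% of genes with a lower interaction, 9.25% with a higher one and 10.3% of all matched genes.

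Antigen presentation genes rose with CYT in both states. Of 25 MHC class I and peptide loading genes, 10 had a lower interaction and 0 a higher one by the quasi-likelihood test (DESeq2 gave the same counts), with a median of -0.80. CYT raised 19 without preconditioning, and 16 of these also with it. B2m, the class I light chain, was at 144, 168 and 144 CPM in untreated, 219, 250.0 and 219 in IL-1βlow, 1024, 1037 and 1134 in CYT and 702, 757 and 823 in IL-1βlow + CYT libraries (interaction -1.08, SE 0.13, quasi-likelihood adjusted p = 3.98e-05). Tap1, the peptide transporter, had -1.44 (SE 0.22) and the immunoproteasome subunit Psmb8 -1.35 (SE 0.16). RT1-S3 (-2.06, SE 0.24) and RT1-CE10 (-1.59, SE 0.16) gave the lowest values, but RT1 genes have close copies, between which reads can be split.  In the MHC class II list, 7 of 11 members had a library with under 10 counts, and 3 had a lower interaction. Cd74, the class II invariant chain, had counts of 10, 2 and 5 in untreated, 241, 174 and 168 in IL-1βlow, 7905, 6326 and 7576 in CYT and 4047, 5197 and 4104 in IL-1βlow + CYT libraries. Preconditioning had thus raised it before the challenge, and the challenged groups did not overlap. Among the members with 10 counts or more on average in each group, RT1-DMa, a peptide-loading chaperone subunit, passed with -1.37 (SE 0.24). The list median of -2.31 became -0.06 when 10 counts were required in every library.

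C3, the central complement component, also started from a raised level. Its counts were 1, 2 and 1 in untreated and 222, 130 and 133 in IL-1βlow libraries, and 6430, 5368 and 7079 in CYT and 2331, 2710 and 3181 in IL-1βlow + CYT libraries. The challenged preconditioned libraries therefore lay below the CYT libraries. C1r, a protease of the classical pathway, had -1.31 (SE 0.30). In all, 2 of 8 complement genes had a lower interaction, and 1 did without untreated replicate 1 or 2, IL-1βlow replicate 2, CYT replicate 2 or IL-1βlow + CYT replicate 1.

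Nitric oxide synthesis was examined as enzyme and substrate supply. Of 14 genes tested, 2 had a lower interaction (14.3%, beside 10.7% of all genes tested). The list median was 0.09, and 8 of the 14 lay above 0. Nos2, the inducible nitric oxide synthase, had counts of 2, 0 and 1 in untreated and 1, 1 and 0 in IL-1βlow libraries, against 7590, 10385 and 13469 in CYT and 543, 1120 and 972 in IL-1βlow + CYT libraries. The challenged groups did not overlap, and the IL-1βlow + CYT to CYT contrast passed at -3.54 (SE 0.21, quasi-likelihood adjusted p = 2.85e-08). The interaction cannot be read for Nos2, because both unchallenged groups held at most 2 counts a library (adjusted p = 0.384). Ass1, which regenerates arginine from citrulline, was at 19.0, 15.0 and 20.9 CPM in untreated, 17.5, 13.1 and 15.1 in IL-1βlow, 341, 306 and 339 in CYT and 70.4, 62.5 and 79.6 in IL-1βlow + CYT libraries (interaction -1.95, SE 0.19, quasi-likelihood adjusted p = 5.80e-06). Slc7a1, an arginine transporter, was at 326, 427 and 381 CPM in CYT and 70.8, 98.1 and 93.2 in IL-1βlow + CYT libraries, which overlapped the untreated range of 75.5, 83.2 and 84.3 (interaction -2.08, SE 0.17, quasi-likelihood adjusted p = 1.81e-06). Both passed by glmTreat as well. Gch1, which makes the cofactor tetrahydrobiopterin, was raised at rest by 0.69 and did not pass for the interaction (0.42, SE 0.16). Among 21 NRF2 and antioxidant genes, 4 had a lower interaction. Hmox1, heme oxygenase 1, was at 29.9, 19.2 and 18.2 CPM in untreated, 33.8, 23.3 and 19.4 in IL-1βlow, 221, 236 and 169 in CYT and 44.6, 39.5 and 37.8 in IL-1βlow + CYT libraries (interaction -2.55, SE 0.29, quasi-likelihood adjusted p = 2.43e-05), the autophagy receptor gene Sqstm1 had -1.47 (SE 0.13), the ferritin light chain gene Ftl1 -1.47 (SE 0.14), and Nfe2l2, which encodes NRF2, -1.05 (SE 0.15), under the minimum without CYT replicate 2 (-0.99). Sod2, mitochondrial superoxide dismutase, rose in both states, by 2.67 and 1.71 (interaction -0.96, SE 0.14, passed in 6 of 18 alternatives).

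Of 18 pro-apoptotic genes, 5 had a lower interaction. All 5 are initiators or a receptor: the BH3-only genes Hrk (-2.23, SE 0.27), Bbc3 (-1.82, SE 0.15), Bmf (-1.69, SE 0.25) and Bid (-1.42, SE 0.16), and the death receptor gene Fas (-1.04, SE 0.23). Hrk was at 4.41, 4.20 and 6.26 CPM in untreated, 5.08, 3.56 and 4.26 in IL-1βlow, 32.0, 34.4 and 29.4 in CYT and 4.56, 6.42 and 6.78 in IL-1βlow + CYT libraries, and its IL-1βlow + CYT libraries overlapped the unchallenged ones. Bbc3, which encodes PUMA, was at 92.9, 110.0 and 123 CPM in CYT and 38.4, 34.8 and 33.5 in IL-1βlow + CYT libraries. Fas rose in both states, by 3.48 and 2.44. Its interaction fell under the minimum without CYT replicate 3 (-0.92) or IL-1βlow + CYT replicate 3 (-0.98). Among 9 anti-apoptotic genes, 1 passed, Bcl2, and that share of 11.1% is near the 10.7% of all genes tested. Bcl2 was at 11.5, 9.53 and 9.97 CPM in untreated, 10.2, 11.0 and 11.0 in IL-1βlow, 5.11, 4.43 and 3.58 in CYT and 9.73, 10.2 and 11.1 in IL-1βlow + CYT libraries, the CYT libraries alone being low (1.19, SE 0.21, quasi-likelihood adjusted p = 6.14e-04). Bcl2l1, another member, had -0.97 (95% interval -1.27 to -0.66) and did not pass. DESeq2 passed 1 member of this list as lower, and limma voom 0. Of 16 p53 targets, the growth arrest gene Gadd45a (-1.65, SE 0.14), Phlda3 (-1.60, SE 0.24) and Aen (-1.36, SE 0.15) were lower, and Rrm2b, a ribonucleotide reductase subunit, was higher (1.28, SE 0.29), a call lost without untreated replicate 1, IL-1βlow replicate 1 or 2 or CYT replicate 2 (1.15 to 1.20). Of 16 AP-1 and immediate early genes, 5 were lower. Maff had -3.36 (SE 0.29), Myc -2.49 (SE 0.36), Jun -1.16 (SE 0.16) and Junb -1.13 (SE 0.16).

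Of 22 islet transcription factors, 4 had a higher interaction and 0 a lower one by the quasi-likelihood test (4 and 0 also by DESeq2 and limma voom, and 2 below 0 at an unadjusted p under 0.05 by edgeR), and the median was 0.66. CYT lowered 8 without preconditioning and 0 with it (0 also by DESeq2 and limma voom, and 6 at an unadjusted p under 0.05 by edgeR). Isl1, a LIM homeodomain factor, was at 149, 143 and 116 CPM in untreated, 121, 108 and 141 in IL-1βlow, 35.2, 24.6 and 21.6 in CYT and 104, 92.6 and 106 in IL-1βlow + CYT libraries. Only the CYT libraries stood apart, with the IL-1βlow + CYT libraries just below the unchallenged range (2.04, SE 0.22, quasi-likelihood adjusted p = 1.59e-05). Pdx1, the main β-cell identity factor, was at 269, 262 and 266 CPM in untreated, 310.5, 315 and 265 in IL-1βlow, 133, 96.2 and 79.5 in CYT and 289, 277 and 224 in IL-1βlow + CYT libraries (1.19, SE 0.21, quasi-likelihood adjusted p = 7.01e-04). Mnx1 had 1.42 (SE 0.16) and Nkx2-2 1.39 (SE 0.15). Several identity factors did not pass: Mafa had 0.94 (SE 0.15) with CYT effects of -1.56 and -0.62, Rfx6 0.95 (SE 0.18), and Nkx6-1 0.76 (SE 0.27) with an adjusted p of 0.041. Mafa and Rfx6 each passed in 2 of 18 alternatives.

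Of 20 genes of insulin, granules and prohormone processing, 6 had a higher interaction. Pcsk1, which encodes the prohormone convertase PC1/3, was at 125, 164 and 147 CPM in untreated, 69.5, 109 and 129 in IL-1βlow, 10.5, 13.8 and 13.8 in CYT and 43.4, 55.6 and 56.0 in IL-1βlow + CYT libraries. CYT libraries lay lowest, and preconditioned challenged libraries between these and the unchallenged ones (2.54, SE 0.27, quasi-likelihood adjusted p = 1.54e-05). Ins2 was at 7465, 7737 and 9089 CPM in untreated, 4779, 4987 and 4926 in IL-1βlow, 1269, 1314 and 1302 in CYT and 2061, 1650.3 and 1582 in IL-1βlow + CYT libraries, with an interaction of 1.17 (SE 0.15). Its IL-1βlow libraries were already lower than untreated ones (effect at rest -0.73, adjusted p = 0.00428), and CYT still lowered it in preconditioned cells by 1.47 on the log2 scale. Ins1 was at 6624, 7965 and 7002 CPM in CYT and 13277, 12070.2 and 10118 in IL-1βlow + CYT libraries, and its interaction of 0.83 (SE 0.19) did not pass. The amylin gene Iapp had 1.14 (SE 0.30), the zinc transporter gene Slc30a8 1.17 (SE 0.20), and the granule docking genes Sytl4 and Rab27a 1.32 (SE 0.27) and 1.11 (SE 0.18). Npy, a neuropeptide of immature β-cells, fell in both states, by 1.35 and 1.36 on the log2 scale (95% interval of the interaction -0.38 to 0.37). Of 20 glucose sensing and excitability genes, 3 were higher and 2 lower. Oxtr, the oxytocin receptor, was at 49.9, 61.4 and 47.2 CPM in untreated, 21.2, 23.9 and 29.7 in IL-1βlow, 0.761, 0.874 and 0.613 in CYT and 5.17, 3.83 and 3.57 in IL-1βlow + CYT libraries: CYT lowered it in both states, and less after preconditioning (3.56, SE 0.29, quasi-likelihood adjusted p = 1.83e-06), from a starting level that preconditioning had itself lowered by 1.09. Ffar1, a fatty acid receptor, had 1.43 (SE 0.29). Trpm5, a calcium-activated channel, had 1.54 (SE 0.37) and lost its call in 8 of 12 removals of a library (1.34 to 1.56). Adcy8, a calcium-stimulated adenylyl cyclase (-1.47, SE 0.27), and the potassium channel gene Kcnk3 (-1.26, SE 0.20) were the lower ones. By glmTreat, 1 gene of each of these 3 lists passed: Isl1, Pcsk1 and Oxtr.

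**Figure D5:**
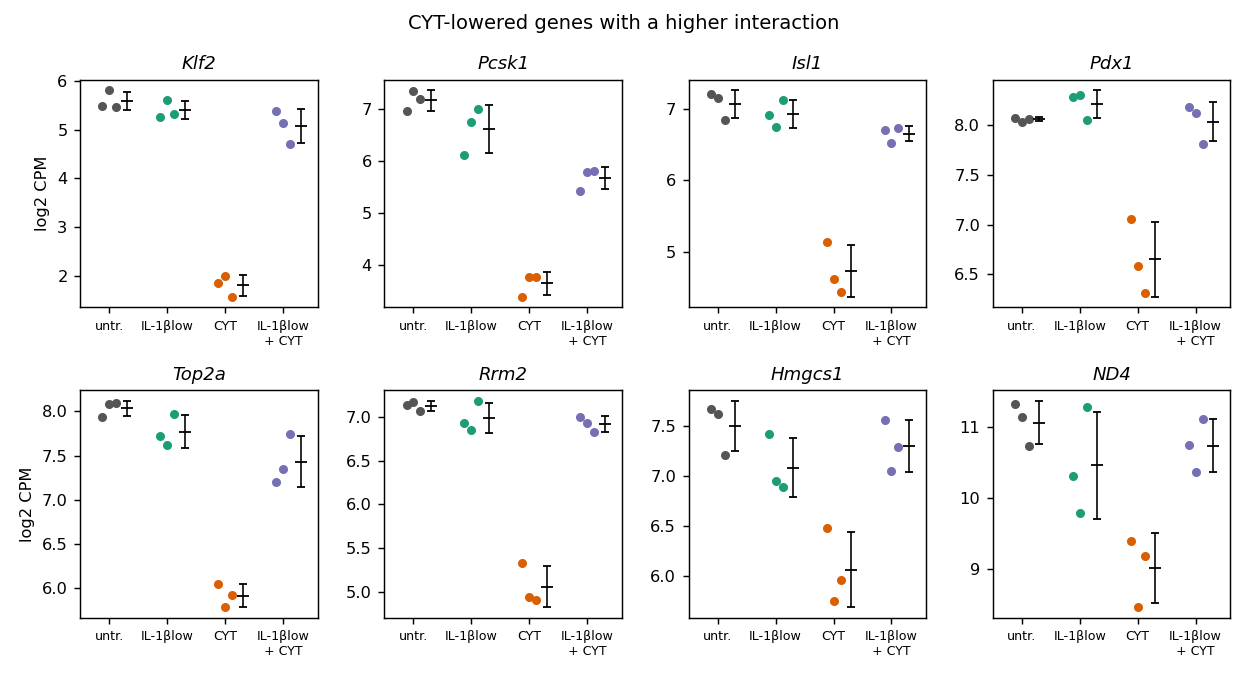
Expression as log2 CPM in each of the 12 libraries for 8 genes that CYT lowered, by group, with the mean and SD (n = 3) beside the points. The CYT libraries are lowest in every panel, and the IL-1βlow + CYT libraries lie above them, near the unchallenged libraries for Pdx1, Rrm2 and Hmgcs1 and below them for Pcsk1. For ND4, IL-1βlow replicates 1 and 2 lie below replicate 3.

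All 35 G2M and mitosis genes had an interaction above 0 (median 1.00), 17 passed, and the median CYT effect went from -1.22 to -0.25. CYT lowered 25 without preconditioning and 0 with it (0 also by DESeq2 and limma voom, and 18 at an unadjusted p under 0.05 by edgeR). Top2a, topoisomerase IIα, was at 245, 269.9 and 272 CPM in untreated, 210.4, 197 and 251 in IL-1βlow, 66.1, 55.1 and 60.6 in CYT and 147, 162 and 215 in IL-1βlow + CYT libraries (1.78, SE 0.19, quasi-likelihood adjusted p = 1.22e-05). Pbk, a mitotic kinase gene, had 1.94 (SE 0.24) and the proliferation marker Mki67 1.13 (SE 0.12). The 17 passed values ran from 1.07 to 1.94, near the minimum of 1, and Top2a was the 1 member to pass by glmTreat. Of 34 DNA replication genes, 3 passed as higher and 0 as lower. That share of 8.82% is near those of all genes tested, 10.7% in either direction and 5.48% higher. The 3 were Rrm2, the S-phase ribonucleotide reductase subunit (1.98, SE 0.16), Dut, which removes dUTP (1.28, SE 0.20), and Pcna (1.08, SE 0.11). The count of 3 became 5 without IL-1βlow + CYT replicate 1 or 3 and 6 without IL-1βlow replicate 3. Rrm2 was at 141, 144 and 134 CPM in untreated, 122, 116 and 146 in IL-1βlow, 40.2, 30.7 and 29.9 in CYT and 129, 123 and 113 in IL-1βlow + CYT libraries.

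Of 21 cholesterol synthesis genes, 6 were higher, among them Hmgcs1, an early enzyme of the pathway (1.62, SE 0.27), Idi1 (1.84, SE 0.41), Sqle (1.20, SE 0.23) and the sterol carrier gene Stard4 (1.28, SE 0.18). CYT lowered these 6 and 0 other members without preconditioning, and 0 with it (0 also by DESeq2 and limma voom, and 1 at an unadjusted p under 0.05 by edgeR). Hmgcs1 was at 203, 197 and 148 CPM in untreated, 171, 123 and 118 in IL-1βlow, 89.1, 53.8 and 62.2 in CYT and 188, 132 and 157 in IL-1βlow + CYT libraries. Idi1 overlaps Wdr37, and its call was lost without untreated replicate 1 or IL-1βlow replicate 2 (1.61 and 1.62). The 13 mitochondrially encoded genes of the respiratory chain all had interactions above 0 (median 1.31), and 6 passed. ND4, a complex I subunit, was at 2572, 2265 and 1699 CPM in untreated, 1269, 890.1 and 2502 in IL-1βlow, 678, 353 and 584 in CYT and 1716, 1318 and 2217 in IL-1βlow + CYT libraries (2.19, SE 0.46, quasi-likelihood adjusted p = 0.00214). Its IL-1βlow libraries were split, replicate 3 being near the untreated level. Mitochondrial transcripts took 3.30% to 4.10% of counts in untreated, 2.24% to 4.25% in IL-1βlow, 1.69% to 2.67% in CYT and 2.81% to 3.92% in IL-1βlow + CYT libraries, and the part of that share in the result was not tested. The count of 6 became 2 without untreated replicate 1, IL-1βlow replicate 1 or CYT replicate 2. It became 3 without untreated replicate 2, IL-1βlow replicate 2 or IL-1βlow + CYT replicate 1 or 3, and 4 without CYT replicate 1, but 8 without IL-1βlow replicate 3.

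Some lists had few or no passed interactions. Of the 13 cytosolic heat shock genes, the 17 exocytosis genes, the 17 insulin receptor and PI3K pathway genes and the 30 cytosolic ribosomal protein genes, 0 passed in the quasi-likelihood test, and Aldoa, an aldolase, was the single one of 25 glycolysis and TCA cycle genes (-1.02, SE 0.17, under the minimum without IL-1βlow replicate 1, CYT replicate 2 or IL-1βlow + CYT replicate 3, at -0.97, -0.96 and -0.94). Among the 4 lists without a passed member, 3, 8, 8 and 28 genes in that order had an unadjusted p under 0.05 by edgeR, limma voom passed 0 in each, and DESeq2 passed 1, a lower gene of the PI3K pathway list. Irs2, an insulin receptor substrate, fell with CYT by 1.73 without and 1.41 with preconditioning (interaction 0.33, 95% interval 0.06 to 0.60). The ribosomal protein genes had small values of 1 sign: 29 of 30 lay below 0, with a median of -0.44, a median CYT effect of 0.45 without preconditioning and 0.03 with it.

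Outside the lists, the lowest interactions among well-counted genes (a mean of at least 10 counts in each group and a mean log2 CPM above 2) included Akna, a microtubule-organizing protein of centrosomes, Nr1d1, the circadian repressor REV-ERBα, and Prcd, a photoreceptor disc protein. Akna was at 1.32, 1.60 and 1.58 CPM in untreated, 2.10, 2.02 and 1.73 in IL-1βlow, 87.1, 109 and 108 in CYT and 4.20, 9.80 and 9.15 in IL-1βlow + CYT libraries (-4.09, SE 0.40, quasi-likelihood adjusted p = 6.98e-06). Nr1d1, which overlaps Thra, was at 19.6, 16.6 and 17.6 CPM in untreated, 16.7, 14.2 and 13.6 in IL-1βlow, 179.5, 252 and 261 in CYT and 16.5, 19.7 and 19.1 in IL-1βlow + CYT libraries. The IL-1βlow + CYT libraries overlapped the untreated ones, and the CYT libraries stood alone (-3.37, SE 0.20, quasi-likelihood adjusted p = 2.13e-07). Prcd, which overlaps Cygb, had -3.87 (SE 0.31). The highest included Klf2, an anti-inflammatory Krüppel-like factor, which was at 44.5, 56.1 and 44.3 CPM in untreated, 38.3, 48.9 and 40.0 in IL-1βlow, 3.59, 3.96 and 2.96 in CYT and 41.5, 35.2 and 26.0 in IL-1βlow + CYT libraries (3.48, SE 0.25, quasi-likelihood adjusted p = 7.30e-07) and overlaps Eps15l1. Cyp4a8, a fatty acid hydroxylase, had 2.99 (SE 0.34), the secreted glycoprotein gene Stc1 2.79 (SE 0.25), the α2A-adrenergic receptor gene Adra2a 2.58 (SE 0.28), and Kcnk16, a potassium channel of β-cells that overlaps Nudt13, 2.84 (SE 0.59). ND4L, a complex I subunit gene, had the highest value of the well-counted genes, 3.60 (SE 0.82), but its untreated libraries ranged over 334, 193 and 98.6 CPM and its IL-1βlow libraries over 39.7, 33.9 and 203, and its call was lost without untreated replicate 1, IL-1βlow replicate 1 or CYT replicate 1 or 2 (3.06 to 3.58).

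Adgrg4, an orphan adhesion receptor gene, was the 1 gene of the 1530 whose CYT effects passed in both states with opposite signs. It was at 17.9, 16.0 and 11.4 CPM in untreated, 12.7, 6.01 and 8.27 in IL-1βlow, 6.30, 3.79 and 4.34 in CYT and 22.5, 17.9 and 19.6 in IL-1βlow + CYT libraries. CYT libraries lay below the untreated ones, and IL-1βlow + CYT libraries above the IL-1βlow ones, so that the effect went from -1.65 without preconditioning to 1.14 with it (2.79, SE 0.36, quasi-likelihood adjusted p = 6.12e-05). In 16 genes with a passed interaction, CYT passed in preconditioned cells alone, as a rise in 13 and a fall in 3. Calb1, the calcium buffer calbindin, was at 11.7, 8.64 and 10.0 CPM in untreated, 12.3, 11.4 and 13.7 in IL-1βlow, 13.6, 10.1 and 10.5 in CYT and 42.3, 36.2 and 39.0 in IL-1βlow + CYT libraries (1.48, SE 0.21, quasi-likelihood adjusted p = 1.07e-04). Nr2f2, an orphan nuclear receptor, had CYT effects of -0.34 and 1.07, and Paqr8, a membrane progestin receptor, -0.31 and 1.08. Fosl2, an AP-1 subunit, fell in preconditioned cells alone. It was at 21.5, 26.8 and 23.0 CPM in untreated, 18.8, 33.9 and 29.1 in IL-1βlow, 23.0, 26.6 and 28.9 in CYT and 6.69, 9.35 and 10.3 in IL-1βlow + CYT libraries, with the 3 IL-1βlow + CYT libraries lowest (-1.77, SE 0.28, quasi-likelihood adjusted p = 3.15e-04).

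Tmem176a and Tmem176b, a pair of overlapping genes for membrane channels of immune and epithelial cells, had lower interactions although preconditioning raised them both at rest and under CYT. Tmem176b was at 1.55, 1.42 and 1.40 CPM in untreated, 18.8, 25.6 and 17.8 in IL-1βlow, 36.9, 29.5 and 26.5 in CYT and 145, 142 and 113 in IL-1βlow + CYT libraries. Every step was upward, but the CYT effect as a fold was smaller after preconditioning (from 4.40 without preconditioning to 2.69 with it, interaction -1.72, SE 0.27, quasi-likelihood adjusted p = 2.54e-04), while IL-1βlow + CYT libraries were the highest of all. Tmem176a had an IL-1βlow effect of 3.90 at rest and 1.75 under CYT. On the linear CPM scale, the interaction of 7 of the 1530 genes had the other sign, these 2 among them, and 1523 kept theirs. Tnfrsf11b (osteoprotegerin) had -1.95 (SE 0.40), Rasgrp3 (an exchange factor for Ras) -1.64 (SE 0.37) and Col22a1 -1.56 (SE 0.37), with IL-1βlow effects at rest of 1.33, 1.37 and 1.79, of which that of Col22a1 passed. None of the 3 passed between IL-1βlow + CYT and CYT cells (-0.62, -0.27 and 0.23). Rasgrp3 and Col22a1 lost their interaction call in 2 and 8 of 18 alternatives. Of the 62 genes that preconditioning changed at rest, 25 had a passed interaction.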

How the data were processed

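Bulk RNA-seq of INS-1E cells was analysed in 12 libraries, 3 for each of 4 groups, taken from the labels. The deposited values were raw, whole-number read counts per gene symbol, which the authors made by trimming with rfastp, aligning with Rsubread to mRatBN7.2 and counting with featureCounts. The strand setting is not given in the sources used here, so overlapping genes named as such may share reads. Genes above 1 CPM in at least 2 libraries were kept (14324 of 34034, 99.9% of counts). Counts were scaled by TMM and fitted in edgeR 4.0.16 (R 4.3.3) with 1 mean for each group. The quasi-likelihood test was used because the exact test of the study's methods cannot test an interaction. P-values were adjusted by Benjamini-Hochberg over all genes tested, and the thresholds were an adjusted p of 0.01 and a log2 value above 1 in size (0.6 for IL-1βlow against untreated). Intervals are 95% with 8 residual degrees of freedom. Values given per library are TMM-scaled CPM, with no pseudocount, and genes with few counts are given as counts.

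DESeq2 1.42.0, limma 3.58.1 (voom), other scalings, filters and thresholds, a replicate block and the removal of each library were the alternatives. On simulated counts for all 14324 genes, with 200 changed by 1.5 on the log2 scale, the interaction test recovered 165 and called 1 unchanged gene. The 200 were drawn from genes with higher mean counts, so recovery for genes with few counts was not measured.

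Members, lists and tests were chosen with earlier results of these data known. Named genes are the 8 highest and 8 lowest interactions among well-counted genes (mean of at least 10 counts in each group, mean log2 CPM above 2), the 2 lowest and 2 highest passed members of each list, genes that the study names, and up to 5 genes each with opposite CYT effects, with a raised start or with a CYT effect under 0.5 in size without preconditioning. Other members of a list were chosen after their values were seen. Promoter windows came from RefSeq tables of GRCr8, matched by symbol for 10925 genes. Their coordinates are not those of the count table, and both strands were searched. P-values describe the spread between cultures of 1 line. A few list members are counted but not reported by name here.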

Additional observations from a re-analysis of the deposited data

Results flagged for a closer look

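The CYT effect differed between cells with and without preconditioning in 1530 of 14324 genes, by the test of the difference itself, and these genes are the subject of the text above. Among them, Adgrg4 is listed apart because its CYT effects passed in opposite directions: the interaction was 2.79, with no overlap between CYT and untreated libraries or between IL-1βlow + CYT and IL-1βlow libraries. With 3 libraries in each group, single libraries were not tested as outliers.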

How the results depend on the processing

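All 93 genes named by rule kept the direction of their interaction under each alternative that tested them, 18 for most and 17 for Kcnk16, Nos2 and Tmem176a, which the minimum of 10 counts in each library left out (1580 comparisons kept their side of the threshold, 66 lost the call and 25 gained it). The number of genes with a passed interaction stayed within 1.5 times 1530 under RLE scaling (1544), DESeq2 (1657), limma voom (1488), with all genes kept (1853), with a minimum of 10 counts in each library (1386) and the removal of 1 library (1275 to 1708). A change of threshold moved the counts more. At an adjusted p under 0.05 with no fold minimum, the counts were 5337 for the interaction, 8926 for CYT without and 1855 with preconditioning, 193 for IL-1βlow at rest and 7267 for IL-1βlow under CYT. With glmTreat they were 182 (26.9% higher, against 51.3%), 1404, 229, 10 and 457. IL-1βlow at rest passed 62 genes, but 139 by DESeq2, 229 without a filter, and 16 to 88 without 1 library (21, 29 and 16 without untreated replicates 1, 2 and 3, and 18 and 23 without IL-1βlow replicates 1 and 2).

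The main fit did not pair libraries by replicate number. Deviations from group means of same-numbered libraries correlated from -0.19 to 0.52 (mean 0.19 over 18 pairs, 13 over 0.1). Pairs with an untreated library ran from -0.19 to 0.18, and pairs without one from 0.12 to 0.52. In 9 of 12 libraries, the best correlation was with their own number. These values do not show that the numbers are unrelated to expression, and the main fit leaves any such structure in its residual spread. With the replicate block, 1767 genes had a passed interaction (1523 shared with the fit without it), and 141 passed for IL-1βlow at rest.

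Scaling moved the median interaction over all genes by at most 0.04. Depth limited genes near 0 counts: 118 of the 1530 had a group with under 10 counts on average, and their folds are not given. The cause of these shifts was not tested beyond the stricter or looser thresholds themselves.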

Other observations

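Of the 1530 genes with a passed interaction, 6 had CYT effects above 0 in both states that were larger after preconditioning, and all 6 are given here after their values were seen. Kcnj2, an inward rectifier potassium channel gene, had CYT effects of 0.25 without and 1.39 with preconditioning (interaction 1.15, SE 0.17). Man1a2, a mannosidase of the Golgi, had 0.09 and 1.13, Klhl14 had 0.61 and 1.70, Apcdd1, an inhibitor of Wnt signalling, had 0.51 and 1.68, Eeig2 had 0.12 and 1.49, and Calb1 had 0.17 and 1.65. Mean levels in IL-1βlow + CYT and CYT libraries were 197 and 56.0 CPM for Kcnj2, 169 and 81.8 for Man1a2, 34.6 and 14.4 for Apcdd1, 55.2 and 14.5 for Eeig2 and 39.1 and 11.4 for Calb1.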
